A study of Mus musculus with 6 samples.

Results

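The cysteine cathepsins with their secreted inhibitor cystatin C were followed in primary microglia of C57/BL6 mice, the resident macrophages of the brain, through 10 genes: Ctsb, Ctsc, Ctsf, Ctsh, Ctsk, Ctsl, Ctso, Ctss, Ctsz and Cst3. The genes were chosen by name and matched to the gene names of the deposited count table, and all 10 were present among its 35275 genes and among the 13274 genes tested. The groups were 3 libraries of microglia co-cultured with regulatory T cells (Tregs), named Treg 1 to 3 here, and 3 libraries of control microglia, named control 1 to 3. The Tregs, T cells that restrain immune responses, were held in transwell inserts for 24 hours over slices of brain obtained 5 days after tMCAO (a temporary block of the middle cerebral artery that models ischemic stroke), and the inserts then stayed over the microglia for 2 days. No slice exposure, insert or other agent is recorded for the controls, so effects of the Tregs, of material carried over from the slices and of the insert cannot be told apart. The labels do not say whether the libraries of a group came from separate animals or cultures. The labels give neither age nor sex of the mice.

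Cysteine cathepsins are papain-like proteases that are made as inactive proenzymes, carried to endosomes and lysosomes mostly by mannose 6-phosphate receptors, and activated there at acid pH. In microglia and other macrophages they degrade engulfed protein, trim antigen and its class II chaperone, and can be secreted. Cystatin C, the product of Cst3, is a secreted protein that binds and blocks most of these enzymes outside the lysosome, and Cst3 is among the most strongly transcribed genes of microglia.

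Treg co-cultured microglia held 3.08-fold more Ctsc transcript, 1.46-fold less Ctsb, 2.43-fold less Ctsf and 1.78-fold less Cst3 than control microglia. Ctsl and Ctso rose 1.26-fold and 1.27-fold, Ctsh and Ctss fell slightly, and Ctsk and Ctsz did not pass the test. Of the 10 genes, 3 were higher (Ctsc, Ctsl and Ctso), 5 were lower (Ctsb, Ctsf, Ctsh, Ctss and Cst3) and 2 were not called, at an adjusted p below 0.05 in edgeR's quasi-likelihood test with Benjamini-Hochberg adjustment over all genes tested. In the same test 50.9% of all genes tested were called, 25.9% higher and 25% lower, so a call by itself does not set these genes apart. Tested against a minimum change of 1.5-fold, 11.3% of all genes were called (6.09% higher and 5.21% lower), and 3 of the 10 genes passed, Ctsc upwards and Ctsf and Cst3 downwards. The median log2 fold change was -0.09 over the 10 genes and -0.01 over all genes tested. The 3 libraries of the groups did not overlap at 7 of the 10 genes, 3 higher and 4 lower, and at 57.2% of all genes tested, 28.6% higher and 28.6% lower. These are bulk samples, in which fewer cells of a type and less RNA per cell cannot be told apart.

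**Figure D1:**
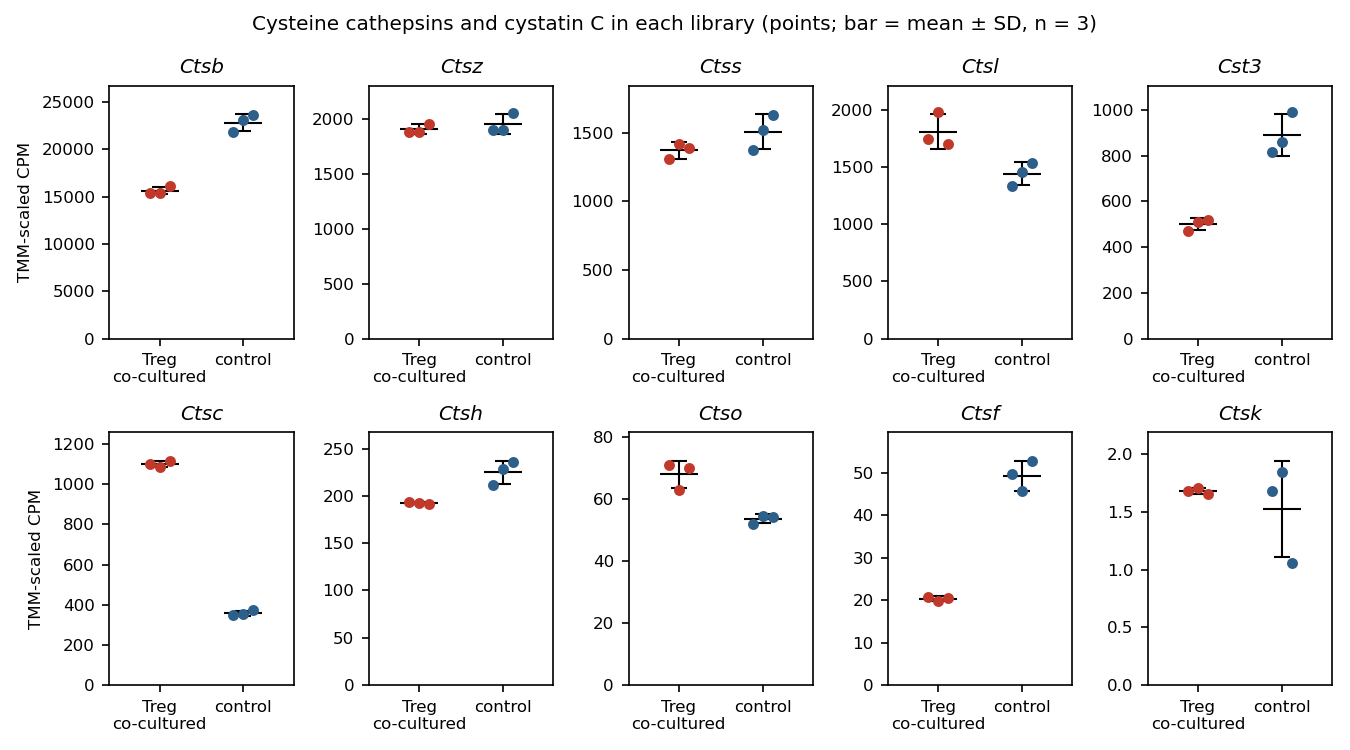
TMM-scaled CPM (linear axis from 0) of the 10 genes in each library, with Treg co-cultured libraries in red on the left and control libraries in blue on the right; bars give the mean ± SD of 3 libraries. Every Treg co-cultured library lies above every control for Ctsc, Ctsl and Ctso and below every control for Ctsb, Ctsf, Ctsh and Cst3, while Ctss, Ctsz and Ctsk overlap.

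The libraries held 22084542, 21531638 and 20987384 counts in Treg 1 to 3 and 21465960, 16972758 and 21431220 counts in control 1 to 3. CPM values are counts relative to the scaled library total. On the log2 scale they correlated across genes at 0.9914 to 0.993 within groups and at 0.9601 to 0.9648 between groups, and no library was a copy of another. Mitochondrial genes took 0.636% to 0.772% of counts in the Treg co-cultured libraries and 1.32% to 1.38% in the controls, and the part of this in the results was not tested. All 10 microglia markers were tested, with 4 higher and 5 lower, and their summed level was 7010 to 7456 CPM in Treg co-cultured microglia and 7876 to 8456 CPM in controls. Monocyte and border macrophage markers summed to 3366 to 3648 CPM in Treg co-cultured microglia and 4907 to 5768 CPM in controls, mostly from Lyz2, and 4 of 10 passed the filter on low counts, with 2 higher, 1 lower and 1 not called. Lyz2 was the lower one, while Pf4 averaged 185 ± 53.7 CPM in Treg co-cultured microglia and 24.8 ± 4.21 CPM in controls, and Mrc1 averaged 448 ± 23.1 CPM in Treg co-cultured microglia and 270.4 ± 7.14 CPM in controls (adjusted p = 0.00141 and 3.89e-14, edgeR). T cell markers summed to 54.5 to 60.4 CPM in Treg co-cultured microglia and 124 to 139 CPM in controls, mostly from Cd28, while Trac was at 0 counts in every library and Cd3e had 10, 2 and 3 counts in Treg 1 to 3 and 0 in every control. Of the 5 T cell markers tested 3 were lower (Cd28, Foxp3 and Ikzf2), 1 was higher (Cd4) and 1 was not called. Foxp3, a Treg marker, had 38, 36 and 29 counts in Treg 1 to 3 and 79, 53 and 66 counts in control 1 to 3 (adjusted p = 4.29e-04, edgeR). Cd4 had 135, 133 and 136 counts in Treg 1 to 3 and 41, 42 and 72 counts in control 1 to 3 (adjusted p = 2.14e-07, edgeR). In Treg co-cultured microglia astrocyte markers summed to 35.5 to 44.7 CPM, oligodendrocyte markers to 294 to 310 CPM, neuron markers to 14.1 to 16.5 CPM and granulocyte markers to 0.284 to 0.583 CPM. In controls astrocyte markers summed to 33.2 to 39.0 CPM, oligodendrocyte markers to 318 to 339 CPM, neuron markers to 9.46 to 12.7 CPM and granulocyte markers to 0.0917 to 0.750 CPM. The part of other cells in the results was not tested.

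Ctsc encodes cathepsin C, or dipeptidyl peptidase 1, which removes dipeptides from protein ends and activates the serine proteases of cytotoxic lymphocytes and granulocytes. It lies at chr7:88278085-88310888 (GRCm38, plus strand). Its level was 1101, 1083 and 1117 CPM in Treg 1 to 3, against 347, 352 and 373 CPM in control 1 to 3. The Treg co-cultured libraries stood close together and far above every control, with an SD of 1.55% of the mean, against 3.82% in the controls. On the log2 scale the change was 1.62 ± 0.05 (SE of the fit here and below, 95% interval 1.52 to 1.73), with an adjusted p of 2.03e-23 in edgeR's quasi-likelihood test and 2.50e-19 against the 1.5-fold minimum. A rise of this size or more was seen at 348 genes, 2.62% of those tested. Leaving out any library kept the log2 fold change between 1.60 and 1.65.

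The proenzymes that cathepsin C is known to activate were nearly undetected in both groups. Of 10 listed (granzymes, elastase, proteinase 3, cathepsin G and mast cell proteases), 7 had 0 counts in every library, where 3 counts, taken as the floor of each library, correspond to 0.136 to 0.173 CPM. Gzmm, granzyme M, was the one member that passed the filter, at 0.809 ± 0.209 CPM in Treg co-cultured microglia and 1.01 ± 0.122 CPM in controls (SD, n = 3 each), with a log2 fold change of -0.32 ± 0.37 and an adjusted p of 0.490 (edgeR). Together the 10 genes summed to 0.662 to 1.12 CPM in Treg co-cultured microglia and 0.907 to 1.24 CPM in controls.

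The genes whose level across the 6 libraries was most like that of Ctsc, by the root mean square difference of their mean-centred log2 CPM among 8145 genes of at least 10 CPM, were Ifi204, Irgm2 and Trim30a, at differences of 0.0362, 0.0470 and 0.0477. Ifi204 averaged 657 CPM in Treg co-cultured microglia and 215 CPM in controls. Irgm2 averaged 169 CPM in Treg co-cultured microglia and 55.0 CPM in controls, and Trim30a 455 CPM in Treg co-cultured microglia and 152 CPM in controls. All 3 are known as genes induced by interferons. The points fall into the groups of the design, so the likeness describes mainly an equal difference between the groups.

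The window of 300 bases around the RefSeq start of Ctsc, from 250 before it to 50 after it, is shown because Ctsc had the largest change of the 10 genes. The table of promoters from RefSeq (GRCm38.p6) held 8 of the 10 genes, all but Ctsb and Ctsh. A script searched both strands for TTCNNNGAA (GAS, bound by STAT factors), the ISRE core (bound by IRF factors and STAT complexes), CACGTG (E-box), TCACGTG (the core of the CLEAR element bound by TFEB, which contains the E-box) and GGAAGT (an ETS core, as bound by PU.1). Capitals mark the matches, a GAS at -236 and an ETS core on the minus strand at -151 from the start.
Ctsc, chr7:88277835-88278134, plus strand: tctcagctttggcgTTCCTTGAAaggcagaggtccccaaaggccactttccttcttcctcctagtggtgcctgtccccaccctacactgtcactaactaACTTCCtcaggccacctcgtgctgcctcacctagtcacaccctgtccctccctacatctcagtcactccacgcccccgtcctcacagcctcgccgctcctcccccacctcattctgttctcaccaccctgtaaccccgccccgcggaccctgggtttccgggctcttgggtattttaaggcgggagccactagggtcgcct
Among 32851 promoter windows of this length, 8.3% held a GAS and 23.8% an ETS core, and a match is a description of letters and not a site.

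Ctsf encodes cathepsin F, a lysosomal enzyme with a long cystatin-like propeptide, whose human gene is mutated in an adult neuronal ceroid lipofuscinosis. It lies at chr19:4855130-4860918 (plus strand). Ctsf was measured at 20.7, 19.7 and 20.6 CPM in Treg 1 to 3, against 49.7, 45.6 and 52.6 CPM in control 1 to 3. These rest on 416 to 442 counts per Treg co-cultured library and 790 to 1148 counts per control library. Every Treg co-cultured library was below the lowest control by more than the range of either group. Its log2 fold change was -1.28 ± 0.07 (95% interval -1.43 to -1.13), with an adjusted p of 3.05e-16 by edgeR and 1.61e-10 against the 1.5-fold minimum. A fall of this size or more was seen at 386 genes, 2.91% of those tested.

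The genes most like Ctsf by the same measure were Cpeb1, Prps2 and Mxd4, at differences of 0.0745, 0.0756 and 0.0763. Cpeb1, an RNA-binding regulator of translation, averaged 12.6 CPM in Treg co-cultured microglia and 29.8 CPM in controls. Prps2, an enzyme of nucleotide synthesis, averaged 105 CPM in Treg co-cultured microglia and 254 CPM in controls. Mxd4, a partner of MAX, averaged 69.7 CPM in Treg co-cultured microglia and 172 CPM in controls. The Ctsf window is shown for its E-box, in capitals at -79 from the RefSeq start.
Ctsf, chr19:4854915-4855214, plus strand: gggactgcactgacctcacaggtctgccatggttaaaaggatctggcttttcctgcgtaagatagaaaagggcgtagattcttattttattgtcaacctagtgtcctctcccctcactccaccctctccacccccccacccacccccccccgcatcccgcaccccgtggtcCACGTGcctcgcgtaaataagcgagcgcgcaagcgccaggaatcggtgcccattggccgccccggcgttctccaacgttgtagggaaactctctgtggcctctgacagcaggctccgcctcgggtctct
The E-box was held by 7.15% of all windows. Of the 8 windows searched, 2 held it, those of Ctsf and of Ctsl at -236, and Ctsl changed in the opposite direction. None of the 8 held the CLEAR core, which 3.77% of all windows held.

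Ctsb encodes cathepsin B, an endopeptidase that also cuts dipeptides from carboxyl ends and is the leading cysteine protease of macrophage lysosomes. It lies at chr14:63122462-63145923 (plus strand). Its level was 15421, 15400 and 16084 CPM in Treg 1 to 3, against 21843, 23089 and 23592 CPM in control 1 to 3. The groups did not overlap, and the gap between them was several times the range of either. Its log2 fold change was -0.55 ± 0.05 (95% interval -0.65 to -0.44), with an adjusted p of 1.54e-10 by edgeR, but it did not pass the 1.5-fold minimum (adjusted p = 1). A fall of this size or more was seen at 14.3% of genes tested.

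Ctsb had more counts than any other gene in all 3 Treg co-cultured libraries, with Ctsd next. In all 3 controls Ctsd led and Ctsb came next. This order is of counts, which also depend on gene length. In the deposited FPKM, which divide counts by gene length and library total, Ctsd was above Ctsb in both groups. Ctsd averaged 6219 FPKM and Ctsb 3223 FPKM in Treg co-cultured microglia, and 12383 and 4926 FPKM in controls. Ctsb took 1.49%, 1.51% and 1.58% of all counts in Treg 1 to 3 and 2.24%, 2.36% and 2.40% in control 1 to 3. It made up 68.3% to 69.8% of the counts of the 10 genes in Treg co-cultured microglia and 77.3% to 78.2% in controls. The 10 genes together took 2.21 ± 0.0542% of counts in Treg co-cultured microglia and 3.00 ± 0.120% in controls (SD, n = 3 each). In the annotation used, GENCODE M21, an exon of Fdft1 on the opposite strand overlaps Ctsb by 774 bases. The strand setting of the counting is not given. Fdft1 held 719 counts over the Treg co-cultured libraries and 616 over the controls. These counts do not show how reads of the shared bases were assigned or whether they were left out. The part of the overlap in the level of Ctsb was not tested.

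Cst3 lies at chr2:148871722-148875692 (minus strand). It was at 471, 509 and 519.6 CPM in Treg 1 to 3, against 815, 861 and 993 CPM in control 1 to 3. All Treg co-cultured libraries lay below all controls, and the controls were spread more widely, with control 3 the highest. The fit gave a log2 fold change of -0.83 ± 0.06 (95% interval -0.96 to -0.70), with an adjusted p of 4.97e-11 by edgeR and 6.82e-04 against the 1.5-fold minimum. A fall of this size or more was seen at 7.74% of genes tested.

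Among the genes most like Cst3 were Rpl21 and Lyz2, at differences of 0.0266 and 0.0277. Lyz2, lysozyme of myeloid cells, averaged 2901 CPM in Treg co-cultured microglia and 5008 CPM in controls. Rpl21 encodes a ribosomal protein and averaged 116.0 CPM in Treg co-cultured microglia and 204 CPM in controls. Genes of cytosolic ribosomal proteins, taken by symbol, held 1.23 ± 0.0950% of counts in Treg co-cultured microglia and 1.94 ± 0.111% in controls (SD, n = 3 each). The part of these shares in the level of Cst3 was not tested.

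**Figure D2:**
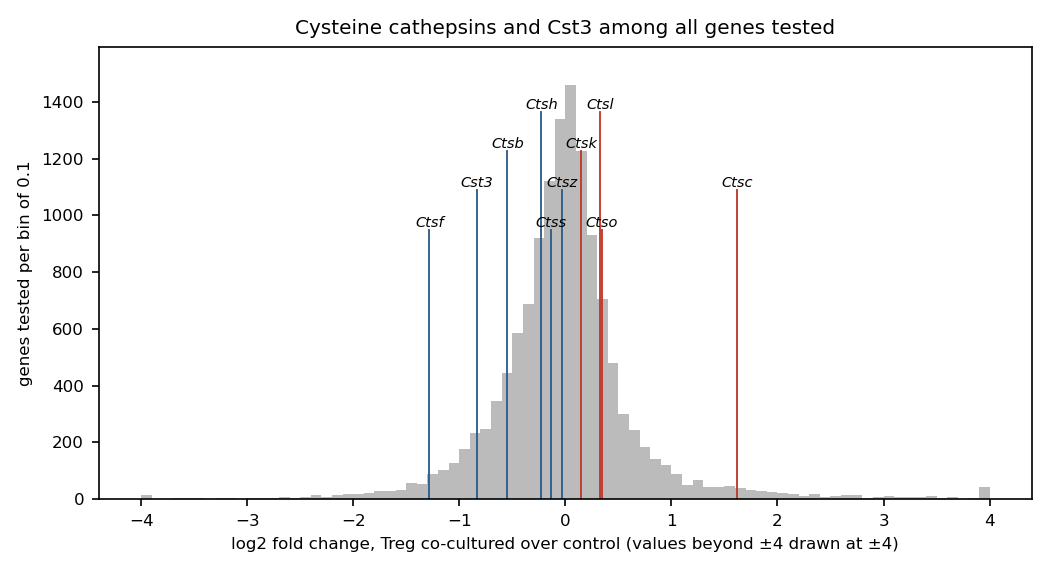
Histogram of the log2 fold change (Treg co-cultured over control, values beyond ±4 drawn at ±4) of the 13274 genes tested, in bins of 0.1, with a vertical line for each cysteine cathepsin and Cst3, red where positive and blue where negative. Ctsc at 1.62 and Ctsf at -1.28 lie towards the tails. Cst3 at -0.83 lies nearer the centre, with 7.74% of genes tested falling as much or more, and the other lines lie closer to the centre still.

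Ctsl and Ctso changed in the same direction as Ctsc but by much less. Ctsl encodes cathepsin L, a strong endopeptidase, and lies at chr13:64359337-64370890 (minus strand). It had 1748, 1983 and 1696 CPM in Treg 1 to 3, against 1337, 1453 and 1533 CPM in control 1 to 3. Treg 2 was the highest, and the lowest Treg co-cultured library exceeded the highest control. The log2 fold change was 0.33 ± 0.06 (adjusted p = 4.35e-05, edgeR), and 19.8% of genes tested rose as much or more. The annotation places the antisense gene Gm47123 over 977 exon bases of Ctsl and the processed pseudogene Gm49230 over 395 exon bases on its own strand. The count table has no entry for either, so reads of these genes cannot be told apart from those of Ctsl.

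Ctso encodes cathepsin O, one of the least studied of the family, and lies at chr3:81932601-81956725 (plus strand). It had 71.0, 62.9 and 70.3 CPM in Treg 1 to 3, against 52.1, 54.6 and 54.5 CPM in control 1 to 3. Treg 2 was the lowest of its group and still above each control. Its log2 fold change was 0.34 ± 0.06 (adjusted p = 1.73e-05, edgeR), and 19.1% of genes tested rose as much or more.

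Ctss, Ctsh, Ctsz and Ctsk showed small differences or none that passed the test. Ctss encodes cathepsin S, which stays active at neutral pH and cuts the class II invariant chain, and lies at chr3:95526786-95556403 (plus strand). It had 1306, 1421 and 1388 CPM in Treg 1 to 3, against 1374, 1521 and 1630 CPM in control 1 to 3. The groups overlapped, since control 1 lay below Treg 2 and Treg 3. The log2 fold change was -0.14 ± 0.06 (95% interval -0.25 to -0.02; adjusted p = 0.0431, edgeR). This call rests on single libraries: the adjusted p by edgeR was 0.207 without Treg 1, 0.0549 without Treg 3, 0.120 without control 2 and 0.258 without control 3, and it was 0.0527 with DESeq2.

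The windows of Ctss and Ctso are shown together because they are the 2 of the 8 that hold the ISRE core, which 3.44% of all windows held, while the changes of the genes differed in sign. Capitals mark the ISRE core at -21 and an ETS core on the minus strand at -2 in Ctss, and in Ctso a pair of overlapping ISRE cores from 16 bases after the start and an ETS core at -227.
Ctss, chr3:95526536-95526835, plus strand: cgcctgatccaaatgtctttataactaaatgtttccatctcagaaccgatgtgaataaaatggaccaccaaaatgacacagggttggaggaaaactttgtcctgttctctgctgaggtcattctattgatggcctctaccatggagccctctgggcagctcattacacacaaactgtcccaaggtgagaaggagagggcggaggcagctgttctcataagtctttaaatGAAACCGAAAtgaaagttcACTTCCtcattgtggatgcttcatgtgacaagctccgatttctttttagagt
Ctso, chr3:81932351-81932650, plus strand: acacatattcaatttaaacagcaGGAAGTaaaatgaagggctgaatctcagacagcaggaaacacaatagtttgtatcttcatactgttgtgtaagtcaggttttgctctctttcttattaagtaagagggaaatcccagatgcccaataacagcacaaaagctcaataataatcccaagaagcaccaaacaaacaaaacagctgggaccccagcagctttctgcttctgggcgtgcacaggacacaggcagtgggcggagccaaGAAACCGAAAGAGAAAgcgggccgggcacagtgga

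Ctsh encodes cathepsin H, an aminopeptidase, and lies at chr9:90054152-90076089 (plus strand). It had 193, 193 and 192 CPM in Treg 1 to 3, against 211, 228 and 235 CPM in control 1 to 3. The Treg co-cultured libraries had an SD of 0.424% of their mean and all lay below the controls. The fit gave a log2 fold change of -0.22 ± 0.05 (adjusted p = 3.51e-04, edgeR). A processed pseudogene, Gm5398, matches 354 bases of Ctsh at 91.0% identity and had 0 counts in every library.

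Ctsz encodes cathepsin X, a carboxypeptidase, and lies at chr2:174427493-174439039 (minus strand). It had 1886, 1880.2 and 1960.2 CPM in Treg 1 to 3, against 1906, 1900.2 and 2062 CPM in control 1 to 3. The ranges overlapped, with control 3 the highest. The log2 fold change was -0.04 ± 0.05 (95% interval -0.14 to 0.07; adjusted p = 0.598, edgeR).

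Ctsk encodes cathepsin K, the collagen-degrading enzyme of osteoclasts, and lies at chr3:95499256-95509362 (plus strand), 17423 bases from Ctss. It was barely detected, with 36, 36 and 34 counts in Treg 1 to 3 and 37, 32 and 23 counts in control 1 to 3. These were 1.68, 1.70 and 1.65 CPM in Treg 1 to 3 and 1.68, 1.85 and 1.05 CPM in control 1 to 3. The 95% exact Poisson intervals, which cover counting error only, ran from 1.14 to 2.36 CPM over the Treg co-cultured libraries and from 0.668 to 2.61 CPM over the controls. The log2 fold change was 0.15 ± 0.29 (95% interval -0.44 to 0.74; adjusted p = 0.694, edgeR), so a difference was not detectable at this depth.

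**Figure D3:**
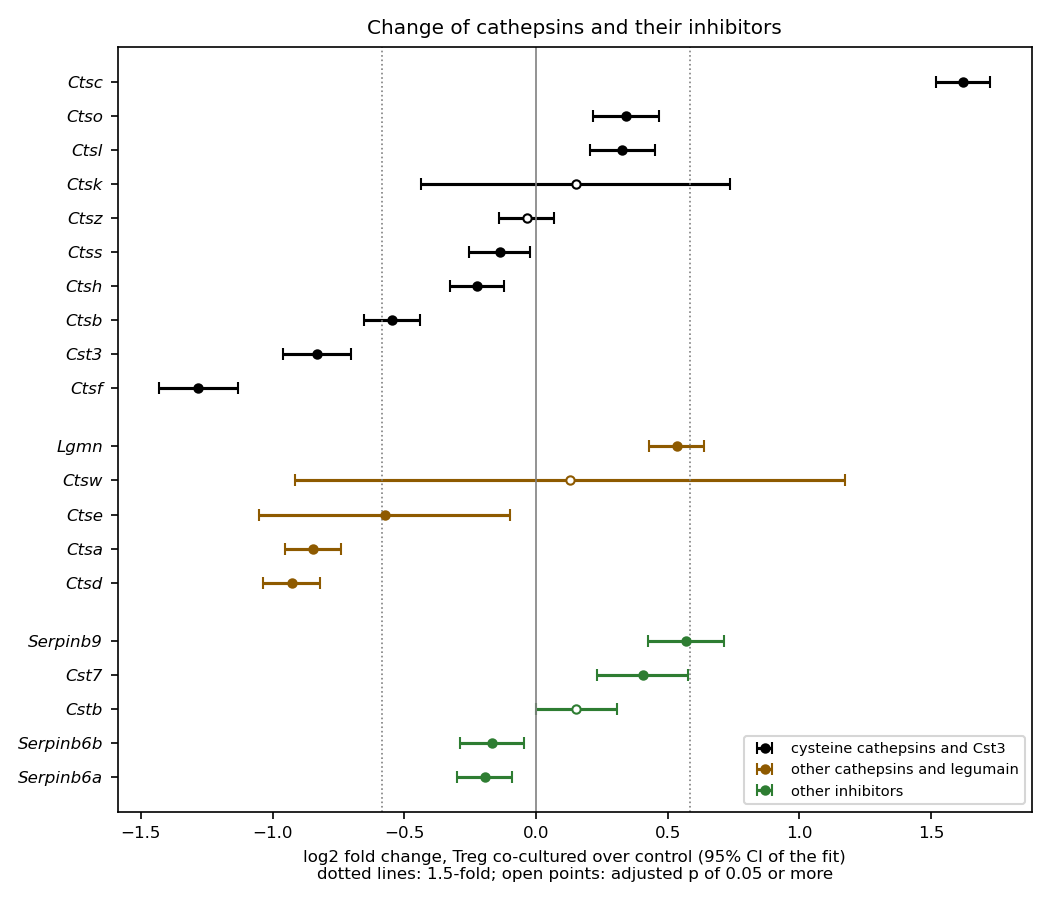
Log2 fold change (Treg co-cultured over control) with its 95% interval for the cysteine cathepsins and Cst3 (black), other cathepsins and legumain (brown) and other inhibitors (green); dotted lines mark 1.5-fold, and open points have an adjusted p of 0.05 or more. Ctsc stands apart on the right at 1.62, and Ctsf, Ctsd, Ctsa and Cst3 lie beyond the left dotted line.

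The deposited FPKM values, which divide counts by gene length and by library total, allow the levels of different genes to be set side by side. In Treg co-cultured microglia the order was Ctsb at 3223 FPKM, Ctsz at 1294, Ctss at 989, Ctsl at 897, Cst3 at 568, Ctsc at 335, Ctsh at 68.5, Ctso at 19.2, Ctsf at 10.0 and Ctsk at 1.11 FPKM. In controls it was Ctsb at 4926 FPKM, Ctsz at 1387, Ctss at 1138, Cst3 at 1057, Ctsl at 747, Ctsc at 114, Ctsh at 83.8, Ctsf at 25.5, Ctso at 15.8 and Ctsk at 1.05 FPKM. Neighbours in these orders did not overlap between libraries, except Ctss with Ctsl in Treg co-cultured microglia and Ctss with Cst3 in controls, and in both pairs Ctss was the higher within each of the 3 libraries. Cst3 and Ctsl thus stood in opposite order in the groups, and so did Ctsf and Ctso.

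**Figure D4:**
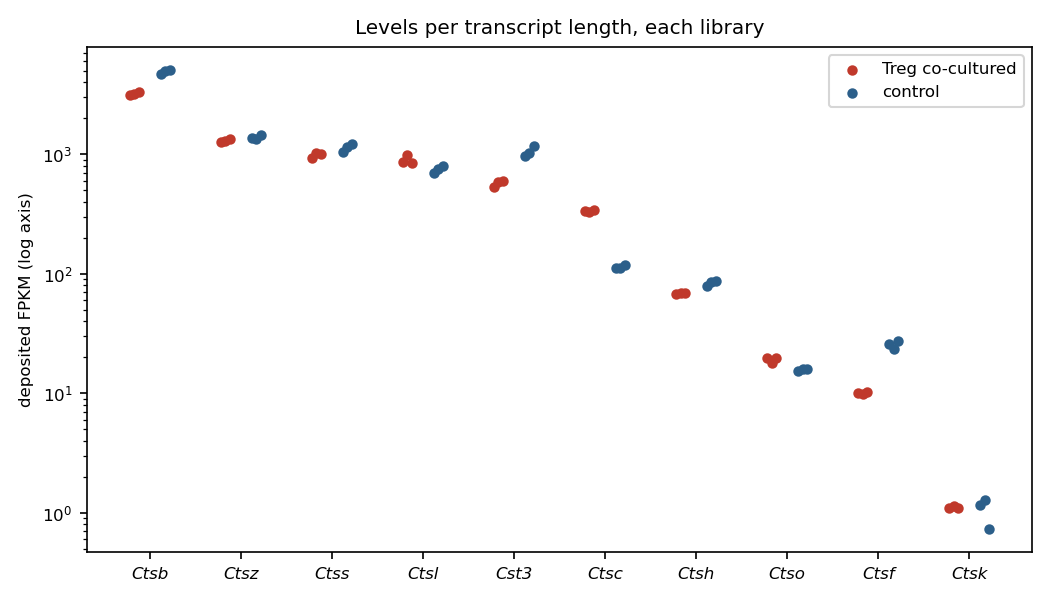
Deposited FPKM (log axis) of the 10 genes in each library, Treg co-cultured in red on the left and control in blue on the right of each gene. Levels span from Ctsk near 1 FPKM to Ctsb at 3223 FPKM and 4926 FPKM, and the order of Cst3 against Ctsl and of Ctsf against Ctso is opposite in the groups.

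Ctsb made up 47.1 ± 0.915% of the summed FPKM of the 9 cathepsins in Treg co-cultured microglia and 58.4 ± 0.645% in controls (SD, n = 3 each). Ctsc made up 4.90 ± 0.107% of that sum in Treg co-cultured microglia and 1.35 ± 0.0264% in controls. In Treg co-cultured microglia Ctsl made up 13.1 ± 1.08%, Ctsz 18.9 ± 0.360% and Ctss 14.5 ± 0.412%, and in controls Ctsl made up 8.85 ± 0.190%, Ctsz 16.4 ± 0.476% and Ctss 13.5 ± 0.514%. The libraries of the groups did not overlap in these 5 shares, and how often this holds for other genes was not computed. The share of Ctsh did overlap, at 0.985% to 1.03% in Treg co-cultured microglia and 0.981% to 1.00% in controls. The shares are parts of one sum, so a smaller share of Ctsb by itself enlarges the others. Ctss itself was slightly lower and Ctsz was not called (log2 fold changes -0.14 and -0.04).

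Ratios within a library do not change with the scaling between libraries. The summed FPKM of the 9 cathepsins was 12.5, 11.9 and 11.7 times that of Cst3 in Treg 1 to 3, against 8.28, 8.27 and 7.48 times in control 1 to 3. Every Treg co-cultured library was thus above every control. The ratio to Cst3 was higher in Treg co-cultured microglia for 8 of the 9 cathepsins, with no overlap between the groups. Cst3 itself fell. A higher ratio to Cst3 without overlap was seen at 79.4% of the other 13273 genes tested, so this count does not set the cathepsins apart. Ctsc had 0.591 ± 0.0309 times the FPKM of Cst3 in Treg co-cultured microglia and 0.108 ± 0.00683 times in controls (SD, n = 3 each). Ctsl had 1.58 ± 0.142 times its FPKM in Treg co-cultured microglia and 0.709 ± 0.0316 times in controls, and Ctsb 5.68 ± 0.232 times in Treg co-cultured microglia and 4.68 ± 0.318 times in controls. Ctsf was the exception, at 0.0177 ± 0.00121 times in Treg co-cultured microglia and 0.0242 ± 0.00200 times in controls. With 3 libraries a group a two-sided exact permutation test of one ratio cannot give a p below 0.1, and the ratios are given as a description. All 9 share Cst3 as their denominator, and they are RNA ratios that say nothing of protein or enzyme activity.

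**Figure D5:**
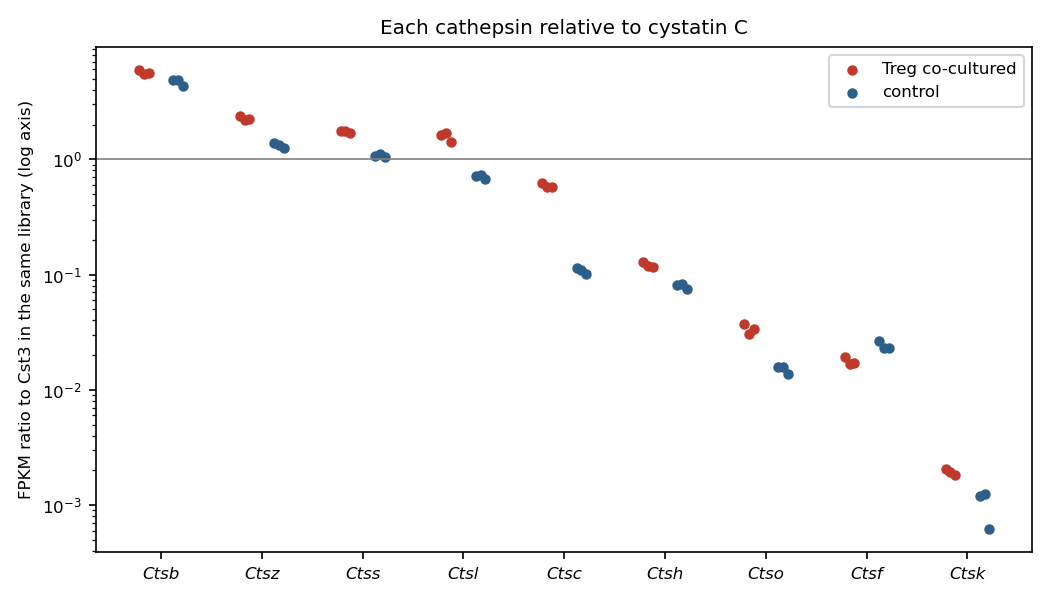
FPKM of each cathepsin divided by that of Cst3 in the same library (log axis), Treg co-cultured in red on the left and control in blue on the right; the grey line marks a ratio of 1. The Treg co-cultured points lie above the control points for every cathepsin except Ctsf, and the ratio of Ctsl lies above 1 in Treg co-cultured libraries and below 1 in controls.

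Control 3 was the highest control for 8 of the 10 genes, where it was the highest for 37.4% of all genes tested, and control 1 was the lowest for 7 of the 10, where it was the lowest for 33.3%. Each Treg co-cultured library was the highest for 3 or 4 of the 10 genes. Leaving out control 3 left the calls of Ctsb, Ctsc, Ctsf, Ctsh, Ctsl, Ctso and Cst3 in place and ended that of Ctss.

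Among other inhibitors (cystatins, stefins and serpins), a list of 21 with 19 in the table, 5 passed the filter, of which 2 were higher, 2 lower and 1 not called. Cst7, cystatin F, an intracellular inhibitor known to act on cathepsin C, had 23.8, 25.2 and 28.3 CPM in Treg 1 to 3, against 17.9, 20.0 and 20.5 CPM in control 1 to 3. Its libraries did not overlap between groups, and the log2 fold change was 0.41 ± 0.08 (adjusted p = 1.56e-04, edgeR). Ctsc had 13.2 ± 1.05 times the FPKM of Cst7 in Treg co-cultured microglia and 5.66 ± 0.281 times in controls (SD, n = 3 each). Serpinb9, a serpin known chiefly as an inhibitor of granzyme B, averaged 47.0 ± 1.90 CPM in Treg co-cultured microglia and 31.6 ± 2.88 CPM in controls (log2 fold change 0.57 ± 0.07, adjusted p = 3.40e-08).

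Serpinb6a averaged 332 ± 12.9 CPM in Treg co-cultured microglia and 380.3 ± 21.4 CPM in controls (log2 fold change -0.19 ± 0.05, adjusted p = 0.00173). Serpinb6b averaged 53.5 ± 2.02 CPM in Treg co-cultured microglia and 60.0 ± 2.13 CPM in controls (-0.17 ± 0.06, adjusted p = 0.0199). Its adjusted p was 0.0721 without Treg 1, 0.0613 without Treg 3, 0.0856 without control 1 and 0.0591 without control 2. Cstb, the cytosolic inhibitor stefin B, averaged 166 ± 21.1 CPM in Treg co-cultured microglia and 149.6 ± 6.48 CPM in controls (0.15 ± 0.07, adjusted p = 0.0921), and its adjusted p was 8.22e-04 without Treg 1. Cst3 made up 65.8 ± 1.69% of the summed FPKM of Cst3, Cst7 and Cstb in Treg co-cultured microglia and 79.3 ± 1.25% in controls, while Cstb made up 31.3 ± 1.66% in Treg co-cultured microglia and 19.2 ± 1.20% in controls.

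Of 13 further cathepsins and legumain, 9 were at 0 in every library, and of the 5 genes tested 1 was higher, 3 were lower and 1 was not called. Ctsd, the aspartic protease cathepsin D, had 13722, 13072 and 13859 CPM in Treg 1 to 3, against 24613, 25892 and 26848 CPM in control 1 to 3. The groups were far apart, and the log2 fold change was -0.93 ± 0.05 (adjusted p = 4.73e-16; 4.96e-07 against the 1.5-fold minimum). Ctsb had 0.518 ± 0.0124 times the FPKM of Ctsd in Treg co-cultured microglia and 0.398 ± 0.00298 times in controls. Ctsa, the serine carboxypeptidase that also shields lysosomal glycosidases, averaged 1246 ± 40.8 CPM in Treg co-cultured microglia and 2244 ± 117 CPM in controls (-0.85 ± 0.05, adjusted p = 2.40e-15). Lgmn, legumain, which cuts several cathepsins further during their maturation, averaged 2895 ± 112 CPM in Treg co-cultured microglia and 1999 ± 77.1 CPM in controls (0.53 ± 0.05, adjusted p = 1.57e-10).

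Ctse, another aspartic cathepsin, was low, with 28, 46 and 46 counts in Treg 1 to 3 and 65, 46 and 63 counts in control 1 to 3 (log2 fold change -0.58 ± 0.23, adjusted p = 0.0405). Its adjusted p was 0.232 without Treg 1, 0.105 without control 1, 0.0596 without control 2 and 0.0864 without control 3, and it was 0.0875 with DESeq2. Ctsw, a cathepsin of cytotoxic lymphocytes, averaged 0.775 ± 0.238 CPM in Treg co-cultured microglia and 0.691 ± 0.659 CPM in controls (adjusted p = 0.856).

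Genes that tag or sort lysosomal proteins, or recycle their sorting receptors, were split. Of 15 tested, 4 were higher, 5 lower and 6 not called, and the list had a median log2 fold change of 0.02. Sort1, sortilin, a sorting receptor for lysosomal proteins, averaged 128 ± 3.35 CPM in Treg co-cultured microglia and 362 ± 17.8 CPM in controls (-1.50 ± 0.05, adjusted p = 2.88e-22). It was the one gene of this list past 1.5-fold. Gga2, an adaptor of mannose 6-phosphate receptors, averaged 64.0 ± 4.77 CPM in Treg co-cultured microglia and 92.8 ± 2.59 CPM in controls (-0.54 ± 0.06, adjusted p = 2.36e-09). Igf2r, the cation-independent receptor, averaged 388 ± 19.8 CPM in Treg co-cultured microglia and 477 ± 29.8 CPM in controls (-0.30 ± 0.05, adjusted p = 1.50e-05). M6pr, the other mannose 6-phosphate receptor, was higher (0.26 ± 0.05, adjusted p = 4.59e-05, edgeR). It averaged 533 ± 23.1 CPM in Treg co-cultured microglia and 445 ± 16.7 CPM in controls. Gnptab, whose product starts the mannose 6-phosphate tag, was higher, at 168 ± 7.02 CPM in Treg co-cultured microglia and 138 ± 4.33 CPM in controls (0.28 ± 0.05, adjusted p = 2.38e-05).

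A further list held 25 lysosomal genes, acid hydrolases except for Npc2, and all were tested. Of these, 5 were higher (Npc2 among them), 14 lower and 6 not called, and 6 were past 1.5-fold, all of them lower. The median log2 fold change of the 25 was -0.18. Hexa, Man2b1 and Gusb, glycosidases, had log2 fold changes of -1.05 ± 0.05, -0.99 ± 0.05 and -0.98 ± 0.05 (adjusted p at most 2.10e-17, edgeR). Hexa averaged 848 ± 13.1 CPM in Treg co-cultured microglia and 1760 ± 65.5 CPM in controls. The fall of Ctsb was thus smaller in size than those of Ctsd, Ctsa and these 3 glycosidases, although differences between genes were not tested.

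Cathepsin S and, in macrophages, cathepsin F are known to process the class II invariant chain. Of 11 genes of class II presentation, Ifi30 and Ciita among them, 7 were tested, with 0 higher, 4 lower and 3 not called. The 4 lower were Ifi30, Cd74, H2-DMa and H2-Ab1, and only Ifi30 was past 1.5-fold. Ifi30, a lysosomal thiol reductase that opens disulfide bonds of antigens, averaged 52.3 ± 3.59 CPM in Treg co-cultured microglia and 108 ± 7.66 CPM in controls (-1.05 ± 0.06, adjusted p = 1.31e-15). Cd74, the invariant chain itself, averaged 9.30 ± 0.832 CPM in Treg co-cultured microglia and 13.2 ± 0.840 CPM in controls (-0.51 ± 0.11, adjusted p = 3.43e-04), and H2-DMa averaged 3.33 ± 0.317 CPM in Treg co-cultured microglia and 4.91 ± 0.499 CPM in controls (adjusted p = 0.00655). H2-Ab1 had 15, 12 and 7 counts in Treg 1 to 3 and 31, 26 and 16 counts in control 1 to 3 (adjusted p = 0.0173), and the adjusted p was 0.0926 without Treg 3, 0.0804 without control 1 and 0.0871 without control 2. The levels of Cd74 were far below those of Ctss in both groups.

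Of 7 transcription factors known to act on lysosomal or myeloid genes, 3 were higher, 2 lower and 2 not called. Cebpb, a C/EBP factor of myeloid cells, had 56.3, 68.4 and 53.0 CPM in Treg 1 to 3, against 16.8, 16.2 and 21.7 CPM in control 1 to 3. The groups were well apart, with a log2 fold change of 1.69 ± 0.12 (adjusted p = 1.60e-07; 4.93e-06 against the 1.5-fold minimum). Tfeb, which drives genes with CLEAR elements, averaged 41.9 ± 0.661 CPM in Treg co-cultured microglia and 59.3 ± 2.97 CPM in controls (-0.50 ± 0.06, adjusted p = 2.90e-08). Spi1, which encodes PU.1, averaged 334 ± 7.17 CPM in Treg co-cultured microglia and 286 ± 23.0 CPM in controls (0.22 ± 0.05, adjusted p = 6.17e-04). Mitf, a relative of TFEB, averaged 140.0 ± 10.7 CPM in Treg co-cultured microglia and 117 ± 9.20 CPM in controls (0.26 ± 0.06, adjusted p = 7.03e-04). These are levels of RNA, and no binding was measured.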

How the data were processed

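RNA of 6 primary microglia samples, extracted with Trizol per the labels' protocols, was made into cDNA with the SMART-Seq HT kit, which amplifies by PCR without molecular identifiers, tagmented with Nextera XT and sequenced paired-end. The submitters' processing notes name STAR, without a version, HTSeq 0.11.2 and the build GRCm38. Read counts per gene, in whole numbers and not normalized, were deposited by the authors in 2 sheets, keyed by identifier and by name, with equal counts in both for all 10 genes. The authors also deposited FPKM values, used here for levels between genes and in alternatives. No per-sample column was left unused.

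From the counts, edgeR 4.0.16 (R 4.3.3, limma 3.58.1) tested the 13274 genes kept by filterByExpr, after TMM scaling, with a robust quasi-likelihood fit (legacy mode) and group as its only term. Tests are two-sided, p-values are adjusted by Benjamini-Hochberg over all genes tested, and the 1.5-fold minimum was tested with glmTreat. CPM values are TMM-scaled. As the labels do not say that replicates are separate animals or cultures, the p-values reflect the spread among these samples only, and that may be technical. The script was tested on simulated data. Coordinates are from GENCODE M21, which holds 97.8% of the identifiers and may differ from the authors' release, and near copies were sought with BLAST 2.17.0.

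The genes and lists were chosen with earlier results of these data known. Named are all 10 genes, every tested gene of the cathepsin and inhibitor lists, up to 4 of smallest adjusted p of the other lists, and the 3 genes most like Ctsc, Ctsf and Cst3; some genes this rule names are not reported here. M6pr is named outside this rule, beside Igf2r. Of the cell type markers, those that hold most of a sum or define a type are named.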

Additional observations from a re-analysis of the deposited data

How the results depend on the processing

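Alternatives were 3 other scalings, no filter on low counts, DESeq2 1.42.0, limma-voom, the sheet keyed by gene name, limma on log2(FPKM + 1) and log2(FPKM + 0.1), leaving out each library, and the replicate number as a block; those for the other lists and their genes were added after seeing the data. Called were 6028 to 6821 genes over the table (6752 as reported), 7 or 8 of the 10 genes, 40 to 49 genes of the other lists (45 as reported), and 3 of the 10 past 1.5-fold wherever that was tested. The share of calls that were higher was 50.8% under TMM, 40.0% under upper-quartile scaling, 41.0% under library totals and 40.7% and 40.6% in the FPKM fits; the median of all genes moved by at most -0.07. Ctsb, Ctsc, Ctsf, Ctsh, Ctsl, Ctso and Cst3 kept direction and call in all 16 alternatives. Leaving out 1 library, the log2 fold change of Ctsk ran from -0.066 (without control 3) to 0.29, that of Ctsz from -0.061 to 0.0030 (without control 3) and that of Ctsw from -0.27 to 1.33 (below 0 without Treg 2, control 2 or control 3), none of them called. The cause was not tested. Cstb was also called with no filter (adjusted p = 0.0180) and with the block (0.0174). Same-numbered libraries did not deviate together (correlations -0.0332, -0.0228 and -0.0266). With 3 libraries a group, these values cannot show whether the libraries were paired. The replicate block called 6755 genes, 8 of the 10, 3 past 1.5-fold and 46 of the other lists. Depth limits Ctsk, Ctse, Ctsw, Gzmm and H2-Ab1, with under 70 counts in each library.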
